A study of Mus musculus with 10 samples.

Results

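The mouse genes Hmgcs1, Sqle, Idi1, Fdft1, Cyp51, Dhcr7 and Insig1 were followed across a set of cerebral cortex libraries. They were chosen by symbol, through the Ensembl identifiers of a count table, and all 7 had a row among the 14276 genes of that table. Of the 7, 6 encode enzymes of cholesterol synthesis and Insig1 encodes a regulator of that pathway. The study compared 5 libraries labelled BrapcKO with 5 control libraries from the cortex of C57BL/6 mice at 3 months of age. Brap encodes a BRCA1-associated, RING-type ubiquitin ligase. The libraries labelled BrapcKO comprised 3 with the genotype Brap flox/ko Cre+ (04, 07 and 21) and 2 with Brap flox/flox Cre+ (05 and 06). The control libraries comprised 3 with Brap flox/wt Cre- (08, 22 and 23) and 2 with Brap flox/flox Cre- (09 and 24). Every library thus came from an animal with at least 1 floxed allele. Cre was present in every BrapcKO library and in no control library, so that effects of Cre and of Brap loss cannot be told apart, and the labels do not name the promoter that drives Cre. The labels call the controls littermates but tie no library to a litter and do not state that each library is a separate animal, so a p-value here covers the spread between libraries only.

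Cholesterol is made in the endoplasmic reticulum from acetyl-CoA. In the adult brain it is synthesised locally, because plasma lipoproteins do not cross the blood-brain barrier, with oligodendrocytes using it for myelin and astrocytes supplying neurons. Hmgcs1 makes HMG-CoA early in the mevalonate pathway, and Idi1 interconverts the 5-carbon isoprenoid units. Fdft1 (squalene synthase) joins farnesyl units into squalene, and Sqle oxidises squalene in the first oxygen-requiring step. Cyp51 removes a methyl group from lanosterol, and Dhcr7 reduces the last double bond that separates 7-dehydrocholesterol from cholesterol. Insig1 retains the SCAP-SREBP complex in the endoplasmic reticulum when sterols are abundant. When sterols are scarce, the transcription factor SREBP2 (Srebf2) is released and binds sterol regulatory elements, usually beside CCAAT boxes and GC boxes, in the promoters of pathway genes, Insig1 included.

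The start-site windows of these genes are shown because SREBP acts through such promoters. Any part of these promoters in the differences between libraries described further on was not tested. RefSeq (GRCm38.p6) windows of 250 bases before to 50 bases after the start were used for 5 of the 7 genes, all except Sqle and Fdft1. Each of the 4 windows printed is given 5′ to 3′ on the strand of its gene, with capitals marking matches on either strand to the sterol regulatory element TCACNCCAC or to CCAAT. They lie at chr13:119690101-119690400 (plus strand) for Hmgcs1, chr13:8885356-8885655 (plus strand) for Idi1, chr5:4104648-4104947 (minus strand) for Cyp51 and chr5:28071162-28071461 (plus strand) for Insig1.
Hmgcs1: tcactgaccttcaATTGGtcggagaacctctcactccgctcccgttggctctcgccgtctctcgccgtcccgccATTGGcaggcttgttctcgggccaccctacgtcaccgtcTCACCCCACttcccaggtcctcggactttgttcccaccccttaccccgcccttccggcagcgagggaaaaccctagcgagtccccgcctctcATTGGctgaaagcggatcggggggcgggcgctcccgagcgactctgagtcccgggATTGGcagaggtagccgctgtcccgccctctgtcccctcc
Idi1: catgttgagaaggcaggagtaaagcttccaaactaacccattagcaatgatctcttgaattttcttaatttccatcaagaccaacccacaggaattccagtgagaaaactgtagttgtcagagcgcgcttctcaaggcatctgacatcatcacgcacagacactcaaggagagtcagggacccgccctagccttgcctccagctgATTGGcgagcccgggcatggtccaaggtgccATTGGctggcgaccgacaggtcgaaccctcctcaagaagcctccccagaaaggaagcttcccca
Cyp51: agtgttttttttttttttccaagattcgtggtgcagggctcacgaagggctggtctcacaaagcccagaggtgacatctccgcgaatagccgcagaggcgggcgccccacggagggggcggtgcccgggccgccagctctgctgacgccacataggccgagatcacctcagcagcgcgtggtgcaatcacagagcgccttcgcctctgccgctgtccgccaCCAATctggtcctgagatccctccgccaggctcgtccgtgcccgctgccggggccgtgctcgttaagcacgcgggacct
Insig1: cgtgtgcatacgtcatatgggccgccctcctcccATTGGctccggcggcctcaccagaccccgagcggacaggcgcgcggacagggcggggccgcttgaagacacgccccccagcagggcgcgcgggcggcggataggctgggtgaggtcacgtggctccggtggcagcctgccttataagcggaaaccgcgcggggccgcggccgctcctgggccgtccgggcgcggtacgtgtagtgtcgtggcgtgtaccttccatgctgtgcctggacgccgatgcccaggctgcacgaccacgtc
TCACNCCAC was found in 1 of the 5 windows, that of Hmgcs1, where TCACCCCAC starts 137 bases before the start site, and in 0 of 12 windows of other cholesterol synthesis enzymes. It was present in 1.24% of all 32851 windows. CCAAT was found in 4 of the 5 windows (all but Dhcr7) and in 11 of the 12 of other enzymes, against 37.4% of all windows. The GC box GGGCGG, not capitalised, was in 5 of 5 and 11 of 12, against 35.7% of all windows. The matches are descriptions of these letters and not measured binding sites. In the annotation of the GRCm38 build, all 7 are protein-coding genes. Hmgcs1 (ENSMUSG00000093930.2) lies at chr13:119690379-119708260 on the plus strand, Idi1 (ENSMUSG00000058258.14) at chr13:8885501-8892451 on the plus strand, and Fdft1 (ENSMUSG00000021273.10) at chr14:63145150-63179578 on the minus strand. Sqle (ENSMUSG00000022351.14) lies at chr15:59315077-59331192 on the plus strand, Cyp51 (ENSMUSG00000001467.5) at chr5:4081145-4104746 on the minus strand, Dhcr7 (ENSMUSG00000058454.15) at chr7:143823145-143848410 on the plus strand and Insig1 (ENSMUSG00000045294.11) at chr5:28071363-28078662 on the plus strand.

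Library titles carry a code, B2 or B1, whose meaning the labels do not give. B2 marked 1 BrapcKO library (21) and 3 control libraries (22, 23 and 24), with 26356508 to 28991874 counts each, and B1 marked 4 BrapcKO (04, 05, 06 and 07) and 2 control libraries (08 and 09), with 17188901 to 20955211 counts each. The code therefore moved with depth and, in part, with group, and it was a term in the test of BrapcKO against control. Brap itself was at 109.9, 89.0, 101, 110.5 and 109 CPM (counts of a gene divided by the scaled library size) in BrapcKO libraries 04, 05, 06, 07 and 21, and at 88.1, 94.3, 76.7, 84.2 and 98.6 CPM in control libraries 08, 09, 22, 23 and 24. Its log2 difference was 0.23 (SE 0.10, adjusted p = 0.18, edgeR quasi-likelihood test with Benjamini-Hochberg adjustment), so the total Brap count was not lower in BrapcKO and did not serve as a check of the labels. The Y-linked Ddx3y was at 115 to 148 CPM in BrapcKO 05, 06, 07 and 21 and in control 23, and at 0 to 0.052 CPM in the other libraries, so Y-linked expression also moved with group. Excitatory neuron markers summed to 2813 to 3354 CPM in BrapcKO libraries and 3096 to 3760 CPM in control libraries. No measured gene of any cell type list was at 0 in any library. Of the 11 reactive astrocyte genes listed, 9 were measured. In bulk cortex, fewer cells of a type and less RNA per cell cannot be told apart.

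Per kilobase of exon, Hmgcs1 stood apart from the other 6 genes. Its level was 72.7 ± 30.4 CPM per kb in BrapcKO libraries and 73.8 ± 12.2 CPM per kb in control libraries (SD, n = 5 each). Insig1 followed, with 17.7 ± 6.78 CPM per kb in BrapcKO and 20.0 ± 5.70 CPM per kb in control libraries, then Cyp51 (17.0 ± 4.50 in BrapcKO, 15.8 ± 1.83 in control), Fdft1 (14.6 ± 4.99 in BrapcKO, 14.5 ± 3.89 in control) and Sqle (13.2 ± 2.98 in BrapcKO, 12.2 ± 0.243 in control). The ranges over libraries of these 4 genes overlapped, so their order does not exceed the spread. Dhcr7 was lower, at 3.75 ± 0.923 CPM per kb in BrapcKO and 4.03 ± 0.375 CPM per kb in control libraries. Idi1 was the lowest of the 7, at 0.888 ± 1.21 CPM per kb in BrapcKO and 1.46 ± 0.900 CPM per kb in control libraries, and its range overlapped that of Dhcr7. No strand setting of the counting is given, and exons of Fdft1, Cyp51, Hmgcs1 and Idi1 share bases with genes on the opposite strand. The longest such overlap was of Fdft1 with the lysosomal protease gene Ctsb, over 774 of 4227 exon bases.

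None of the 7 genes was called as higher or lower in BrapcKO than in control libraries. At an adjusted p under 0.05, 0 of 7 passed in the edgeR quasi-likelihood test with Benjamini-Hochberg adjustment, where 1152 of 14276 genes did (8.07%, with 3.12% higher and 4.95% lower). At an unadjusted p under 0.05, 1 of the 7 passed (Fdft1), where 3166 of 14276 genes did. At an adjusted p under 0.05, DESeq2, limma-voom and the edgeR likelihood-ratio test called 0 of 7. The fitted log2 differences were positive for 6 of the 7, with a median of 0.16 over the 7 genes and of 0.01 over all genes tested. That median depended on BrapcKO 21, the only BrapcKO library with the code B2: without it, 3 of 7 differences were positive and the median was -0.02. With the group as the only term, 3 of 7 were positive and the median was also -0.02, and with the code and a Y-linked score as terms, 5 of 7 were positive and the median was 0.03. In no member did the groups separate, against 6.82% of all genes (3.12% higher, 3.71% lower).

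**Figure D1:**
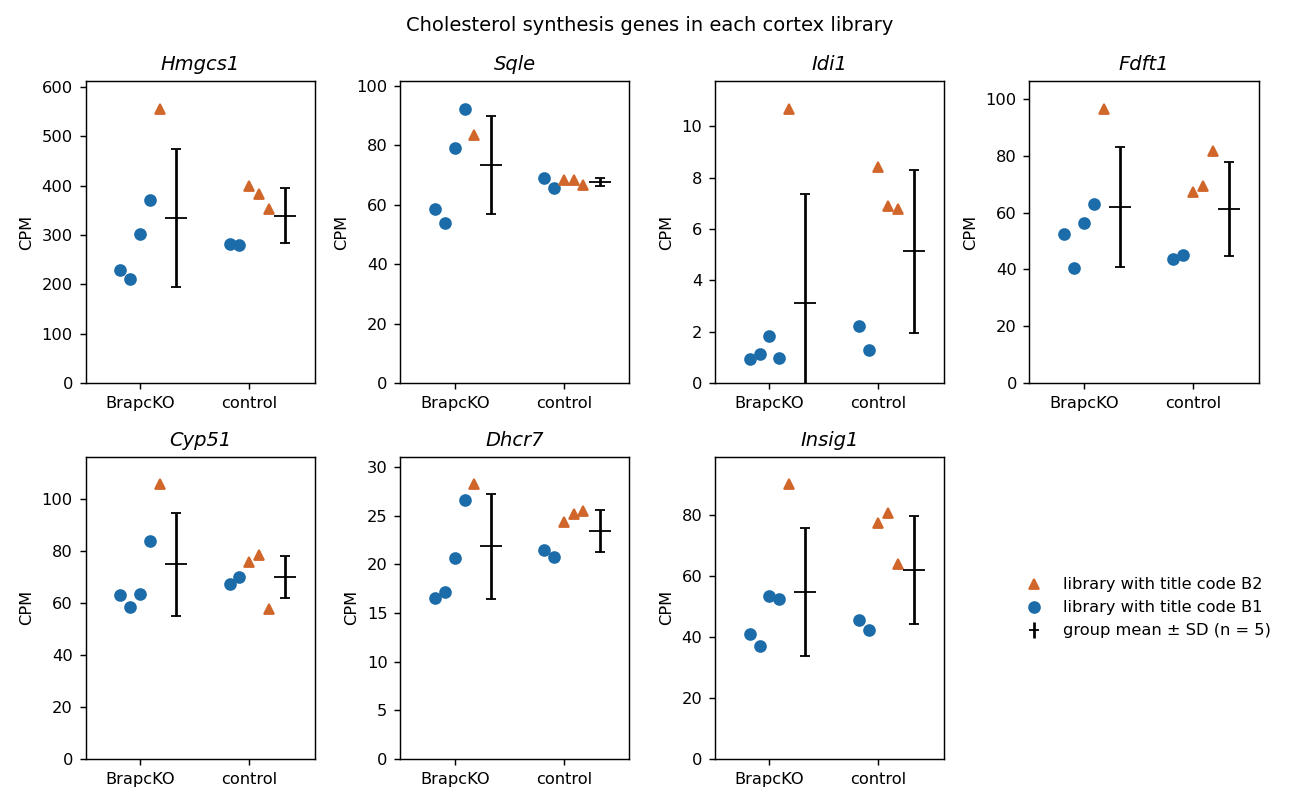
Levels in CPM (linear axes from 0) of the 7 genes in the 5 BrapcKO and 5 control libraries, with triangles for title code B2, circles for B1 and the group mean ± SD beside the points. BrapcKO and control libraries overlap for every gene, and Idi1 is at 6.78 to 10.7 CPM in B2 and 0.933 to 2.24 CPM in B1 libraries (the lower part of its BrapcKO error bar ends at the axis).

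Of the mevalonate steps, Hmgcs1 had 229, 210.5, 302, 372 and 556 CPM in BrapcKO libraries 04, 05, 06, 07 and 21, and 281, 280.3, 399, 383 and 353 CPM in control libraries 08, 09, 22, 23 and 24. Both the lowest and the highest library were BrapcKO libraries, and the control libraries lay between them. The fitted log2 difference of Hmgcs1 was 0.20 (SE 0.16, 95% interval -0.15 to 0.55, adjusted p = 0.52, edgeR). Idi1 had 0.933, 1.12, 1.84, 0.977 and 10.7 CPM in the same BrapcKO libraries and 2.24, 1.29, 8.42, 6.91 and 6.78 CPM in the control libraries. These values rest on 18, 20, 39, 20 and 302 counts in BrapcKO and 44, 25, 243, 198 and 176 counts in control libraries. The high libraries of Idi1 were those with the code B2 in either group. With the code in the fit, the log2 difference of Idi1 between BrapcKO and control was -0.01 (SE 0.26, 95% interval -0.57 to 0.54, adjusted p = 0.99, edgeR).

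Of the squalene steps, Fdft1 had 52.4, 40.6, 56.5, 63.1 and 96.6 CPM in BrapcKO libraries 04 to 21 and 43.7, 44.9, 67.3, 69.2 and 81.5 CPM in control libraries 08 to 24. Within B1, 3 of the 4 BrapcKO libraries were above both control libraries, and within B2 the BrapcKO library was above all 3 control libraries. The log2 difference of Fdft1 was 0.32 (SE 0.12, 95% interval 0.06 to 0.57, unadjusted p = 0.0188, adjusted p = 0.13, edgeR). Without BrapcKO 05, the lowest library for Fdft1, the difference was 0.39 with an adjusted p of 0.0185. Ctsb, which shares exon bases with Fdft1, was at 478, 775, 536, 441 and 422 CPM in BrapcKO libraries and 412, 448, 414, 422 and 419.9 CPM in control libraries. Ctsb was thus highest in BrapcKO 05, where Fdft1 was lowest, and the part of shared reads in the Fdft1 counts was not tested. Sqle had 58.7, 53.9, 78.9, 92.4 and 83.5 CPM in BrapcKO libraries and 69.0, 65.7, 68.2, 68.2 and 66.6 CPM in control libraries. The control libraries of Sqle agreed within a coefficient of variation of 2.0%, against 22.5% among BrapcKO libraries, with 2 BrapcKO libraries below and 3 above all control libraries. The log2 difference of Sqle was 0.16 (SE 0.14, 95% interval -0.14 to 0.46, adjusted p = 0.56, edgeR).

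Of the sterol steps, Cyp51 had 63.2, 58.4, 63.6, 84.0 and 106 CPM in BrapcKO libraries and 67.3, 70.3, 75.8, 78.6 and 57.9 CPM in control libraries. BrapcKO 07 and 21 exceeded every control library and the other 3 lay below 4 of the 5 control libraries. The log2 difference of Cyp51 was 0.20 (SE 0.14, 95% interval -0.11 to 0.51, adjusted p = 0.46, edgeR). Dhcr7 had 16.5, 17.1, 20.7, 26.6 and 28.2 CPM in BrapcKO libraries and 21.5, 20.7, 24.3, 25.2 and 25.4 CPM in control libraries, with a log2 difference of 0.03 (SE 0.13, 95% interval -0.26 to 0.32, adjusted p = 0.93, edgeR). The regulator Insig1 had 40.9, 37.1, 53.5, 52.3 and 90.0 CPM in BrapcKO libraries and 45.5, 42.4, 77.4, 80.6 and 63.8 CPM in control libraries. Its highest and lowest libraries were both BrapcKO libraries, and its log2 difference was 0.15 (SE 0.12, 95% interval -0.12 to 0.41, adjusted p = 0.53, edgeR). The upper bounds of the 95% intervals were 0.32 to 0.57 on the log2 scale over the 7 genes, and the intervals of all but Fdft1 included 0.

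**Figure D2:**
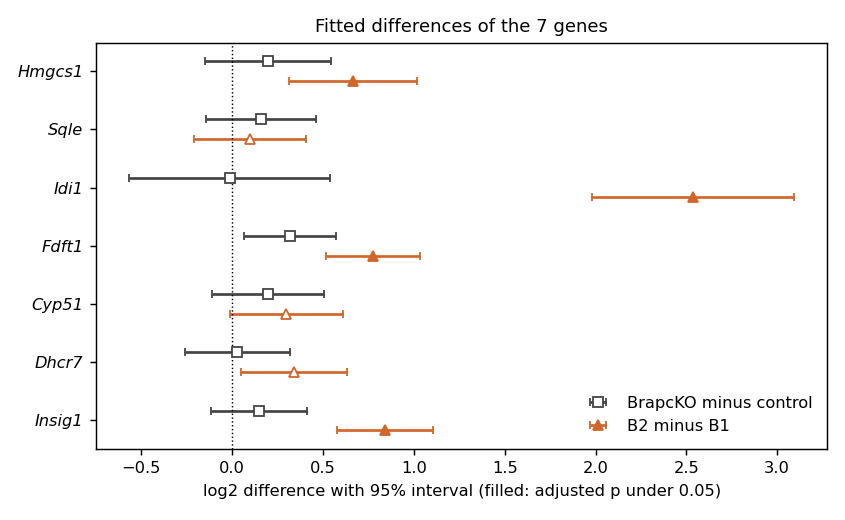
Fitted log2 differences (x axis) with 95% intervals for the 7 genes, squares for BrapcKO minus control (code in the fit) and triangles for B2 minus B1 with the group as a term, filled where the adjusted p is under 0.05. No square is filled, and the 4 filled triangles are Hmgcs1, Idi1, Fdft1 and Insig1.

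The 4 genotypes gave no call among the 7 genes. In flox/ko Cre+ against flox/wt Cre- libraries (n = 3 each), 0 of 7 passed and 4.84% of all genes did (1.77% higher, 3.08% lower). Fdft1 had the smallest p of the 7 there, with a log2 difference of 0.47 (SE 0.13, adjusted p = 0.074, edgeR), and the median over the 7 was 0.21. In flox/flox Cre+ against flox/flox Cre- libraries (n = 2 each), 0 of 7 passed, 0.736% of all genes did, and the median was 0.03, with 0.05 (SE 0.17) for Fdft1. Both flox/flox Cre+ libraries (05 and 06) were B1, whereas the flox/flox Cre- libraries were 09 (B1) and 24 (B2). Control 24 thus entered that comparison only through the code term. The difference between these contrasts was 0.42 for Fdft1 (SE 0.20, 95% interval -0.03 to 0.86, adjusted p = 0.83, edgeR), and 0 genes in the table passed a test of it (873 at an unadjusted p under 0.05). The difference between BrapcKO and control also passed for 0 genes when it was compared between B2 and B1 (1069 at an unadjusted p under 0.05). In that comparison Cyp51 had 0.61 (SE 0.25, unadjusted p = 0.0337, adjusted p = 0.66, edgeR) and Idi1 had 1.06 (SE 0.47, unadjusted p = 0.0428, adjusted p = 0.67), with a single BrapcKO library in B2.

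The title code separated several of the genes. With the group as a term, 4 of the 7 were higher in B2 than in B1 libraries and 0 were lower, where 25.1% of all genes passed (13.4% higher and 11.8% lower). Idi1 was at 8.20 ± 1.82 CPM in B2 (SD, n = 4) and 1.40 ± 0.526 CPM in B1 libraries (SD, n = 6). Its log2 difference of 2.54 (SE 0.26, 95% interval 1.98 to 3.09, adjusted p = 8.0e-06, edgeR quasi-likelihood test with Benjamini-Hochberg adjustment) was matched or exceeded in the higher direction by 0.813% of all genes. Insig1 was at 78.0 ± 10.8 CPM in B2 and 45.3 ± 6.51 CPM in B1 libraries, a log2 difference of 0.84 (SE 0.12, adjusted p = 0.00023, edgeR). Fdft1 was at 78.7 ± 13.5 CPM in B2 and 50.2 ± 8.62 CPM in B1 libraries, a log2 difference of 0.77 (SE 0.12, adjusted p = 0.00035, edgeR). For these 3 genes no B2 library overlapped a B1 library, as for 19.5% of all genes in either direction (10.6% higher, 8.92% lower in B2).

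Hmgcs1 was at 423 ± 91.1 CPM in B2 and 279 ± 57.1 CPM in B1 libraries, with an overlap through BrapcKO 07 and a log2 difference of 0.67 (SE 0.16, adjusted p = 0.0097, edgeR). Without BrapcKO 21 the Hmgcs1 difference was 0.44 and its adjusted p was 0.168, whereas Idi1, Fdft1 and Insig1 passed without any 1 of the 10 libraries. In the 5 control libraries alone, a comparison added after seeing the data, 13.3% of 13799 genes passed. There the same 4 members were higher in B2 than in B1, with log2 differences of 2.07 for Idi1, 0.76 for Insig1, 0.72 for Fdft1 and 0.44 for Hmgcs1. Dhcr7 (0.34, adjusted p = 0.084), Cyp51 (0.30, adjusted p = 0.15) and Sqle (0.10, adjusted p = 0.66, edgeR) did not pass between B2 and B1. Sqle averaged 71.6 ± 7.97 CPM in B2 and 69.8 ± 14.1 CPM in B1 libraries.

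Depth and endothelial and mural markers differed with the code as well, in a comparison that 25.1% of all genes passed. Endothelial and mural markers summed to 209.6 to 299 CPM in B2 and 369 to 557 CPM in B1 libraries, and 6 of the 10 were lower in B2. Of the 15 astrocyte markers 3 were lower and 0 higher in B2, with sums of 5280 to 6307 CPM in B2 and 6441 to 8683 CPM in B1 libraries. Mature oligodendrocyte and myelin markers, from cells with a high demand for cholesterol, summed to 3625 to 5346 CPM in B2 and 2936 to 4519 CPM in B1 libraries, with 2 of 20 higher and 1 lower in B2. The part of these in the differences of the 7 genes was not tested.

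The 7 genes deviated together from library to library. BrapcKO 04 and 05 were the lowest 2 of the 5 BrapcKO libraries for 6 of the 7 genes, all but Idi1, an order seen in 15.3% of all genes. BrapcKO 21 was the highest of all 10 libraries for 6 of the 7, all but Sqle, as for 15.7% of all genes. Both counts were chosen after the values were seen. Over the 22 measured genes of cholesterol synthesis with Insig1, these orders held for 16 and 13. After group and code were fitted, the Pearson r of the residual log2 CPM over 10 libraries was above 0 in all 21 pairs, with a median of 0.72 and a range of 0.10 to 0.95. The pair highest in r was Sqle with Dhcr7 (0.95), and the lowest was Idi1 with Fdft1 (0.10). These r values share libraries, depth and scaling and are given as a description. Pairs of other genes were not measured in this way, so the values are not shown to be particular to the 7. Some genes on none of the lists, such as Ciao1 (r = 0.99) and Arl8b (0.97), also followed the mean residual of the 7.

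**Figure D3:**
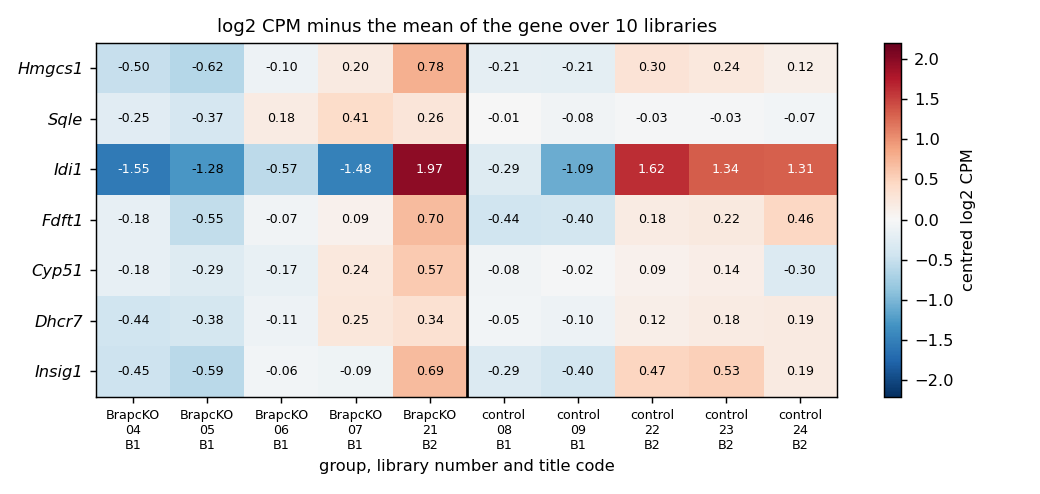
Log2 CPM of each of the 7 genes (rows) minus its mean over the 10 libraries (columns, BrapcKO then control, with title codes), red for above and blue for below the mean. BrapcKO 04 and 05 are below the mean for every gene and BrapcKO 21 is above it for every gene, with Idi1 spanning -1.55 to 1.97.

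The rest of the pathway did not pass either in BrapcKO against control. Of the 6 other mevalonate enzymes, 0 passed in either direction (1 at an unadjusted p under 0.05), with a median log2 difference of 0.12. Of all 14276 genes, 3166 were at an unadjusted p under 0.05. Acat2, which condenses acetyl-CoA at the entry of the pathway, had 0.27 (adjusted p = 0.22), and Fdps, which makes farnesyl diphosphate, had 0.32 (SE 0.28, adjusted p = 0.56, edgeR). Acat2 passed only without BrapcKO 05 (0.35, adjusted p = 0.0304, edgeR), which was its lowest library at 18.8 CPM. Of 9 other sterol-specific enzymes measured, 0 passed (0 at an unadjusted p under 0.05), with a median of 0.12. The lanosterol synthase gene Lss had 0.24 (adjusted p = 0.24) and the sterol C4-demethylation gene Msmo1 had 0.21 (adjusted p = 0.46, edgeR). Between B2 and B1, 2 of the 6 other mevalonate enzymes and 1 of the 9 other sterol-specific enzymes were higher in B2 and 0 were lower, against 25.1% of all genes in either direction. The mevalonate enzymes were Fdps (1.31, SE 0.27, adjusted p = 0.0038) and Acat2 (0.58, adjusted p = 0.0044, edgeR).

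**Figure D4:**
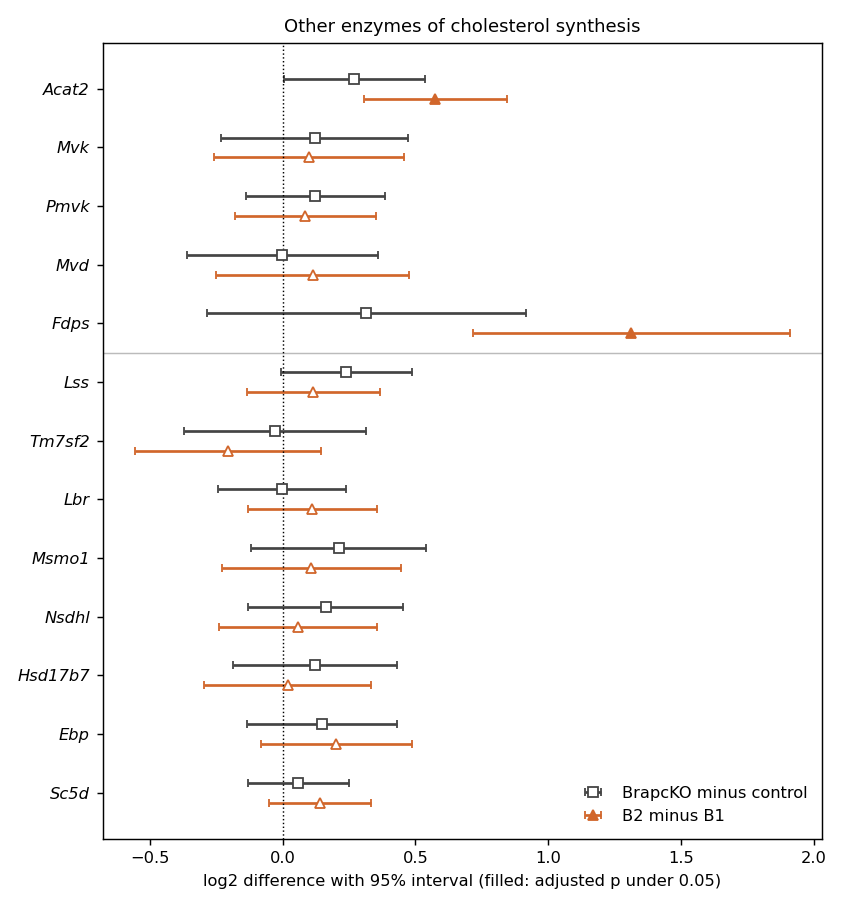
Fitted log2 differences (x axis) with 95% intervals for 13 of the 15 other enzymes of cholesterol synthesis measured (2 are not shown), mevalonate steps above the grey line and sterol steps below it, squares for BrapcKO minus control and triangles for B2 minus B1, filled where the adjusted p is under 0.05. No square shown is filled, and the filled triangles shown are Acat2 and Fdps.

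Among 15 genes that regulate SREBP or sterol-dependent protein turnover, 0 were called as higher and 1 as lower. Of all genes, 3.12% were called as higher and 4.95% as lower. Tmem97, a sterol-regulated membrane protein also known as the sigma-2 receptor, fell by 0.48 on the log2 scale (SE 0.12, adjusted p = 0.024, edgeR). Tmem97 was at 4.56, 4.32, 4.20, 3.81 and 8.14 CPM in BrapcKO libraries and 6.21, 5.87, 10.4, 10.96 and 11.7 CPM in control libraries. Within each code the BrapcKO libraries were below the control libraries, but the call was lost without BrapcKO 21 or without control 08, 09 or 23 (adjusted p = 0.057 to 0.24 over all 8 settings that lost it). Srebf2, which encodes SREBP2, had -0.03 (adjusted p = 0.90), its escort Scap -0.05 (adjusted p = 0.85) and Insig2 -0.08 (adjusted p = 0.62, edgeR). Srebf1, whose product acts mainly on fatty acid genes, was at 78.6, 74.0, 79.1, 76.2 and 54.3 CPM in BrapcKO libraries and 50.6, 37.8, 57.6, 55.4 and 63.0 CPM in control libraries, with 0.48 (SE 0.16, adjusted p = 0.093, edgeR). Its 4 B1 BrapcKO libraries were above every control library, and it passed without BrapcKO 21, in B1 libraries alone, with DESeq2 and with the likelihood-ratio test.

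Of 15 genes of sterol uptake and transport, 2 rose and 1 fell, where 3.12% of all genes rose and 4.95% fell. Lipa, which frees cholesterol from esters in lysosomes, was at 29.3, 37.8, 34.7, 30.4 and 32.2 CPM in BrapcKO libraries and 28.4, 26.4, 21.6, 23.3 and 23.5 CPM in control libraries. The groups of Lipa did not overlap, and it rose by 0.35 (SE 0.10, adjusted p = 0.043, edgeR), a call lost in 11 settings, among them leaving out any of 4 control libraries (08, 09, 22 and 23) or BrapcKO 05, 06 or 21 (adjusted p = 0.051 to 0.40). Gramd1b, which carries cholesterol from the plasma membrane to the endoplasmic reticulum, was at 213, 221, 199, 179 and 174 CPM in BrapcKO libraries and 256, 281, 202, 213 and 215 CPM in control libraries. It fell by 0.36 (SE 0.08, adjusted p = 0.016, edgeR), a call lost in 6 settings, among them without control 08 or 09 (adjusted p = 0.056 to 0.63).

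Efflux, fatty acid and isoprenoid genes gave 0 calls of 13, 13 and 12 genes in BrapcKO against control (edgeR), with 2, 3 and 2 at an unadjusted p under 0.05. Of all 14276 genes, 8.07% were called and 3166 were at an unadjusted p under 0.05. The efflux pump Abca1 had 0.50 (adjusted p = 0.069), and Ch25h, which makes 25-hydroxycholesterol, had 2.43 (SE 0.78, adjusted p = 0.083, edgeR). The triglyceride lipase Pnpla3 had -0.79 (adjusted p = 0.066) and the NADPH-producing Me1 0.27 (adjusted p = 0.19, edgeR). The farnesyltransferase subunits Fnta and Fntb had 0.23 (adjusted p = 0.096) and 0.26 (adjusted p = 0.11, edgeR). Abca1 passed under 5 settings, Ch25h under 3, Pnpla3 under 2 and Fnta under 1 (DESeq2), while Me1 and Fntb passed under none of those run.

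Some cell type lists held genes that differed between BrapcKO and control libraries, where 8.07% of all genes passed. Mature oligodendrocyte and myelin markers summed to 2936 to 4052 CPM in BrapcKO and 3813 to 5346 CPM in control libraries, with 0 of 20 called and a median log2 difference of -0.21. By genotype, 8 of these 20 markers fell in flox/ko Cre+ against flox/wt Cre- libraries (median -0.48, where 4.84% of all genes passed). In flox/flox Cre+ against flox/flox Cre- libraries 0 of 20 passed (median 0.20, with 16 of 20 positive). For the difference between these contrasts 0 of 20 passed, with a median of -0.76 (edgeR). At an unadjusted p under 0.05 were 19 of the 20, and 873 of all 14276 genes. Between the control genotypes, flox/flox Cre- against flox/wt Cre- (n = 2 and 3), 0 of 20 passed and 0 were positive. Of all 14276 genes, 0 passed in that comparison. There 11 of the 20 were at an unadjusted p under 0.05 (1012 of all 14276 genes), with a median of -0.36 (edgeR). Likewise, flox/ko Cre+ against flox/flox Cre+ (n = 3 and 2) had 0 of 20 passing and 0 positive, and 0 of all genes passed. In it 9 of the 20 were at an unadjusted p under 0.05 (960 of all 14276 genes), with a median of -0.38 (edgeR). Reactive astrocyte genes summed to 506 to 1518 CPM in BrapcKO and 211 to 247 CPM in control libraries, with 5 of 9 measured rising, among them Vim (1.81) and Serpina3n (1.67). Microglia markers summed to 546 to 1542 CPM in BrapcKO and 380.3 to 407 CPM in control libraries, with 3 of 12 rising, the complement genes C1qa, C1qb and C1qc. The highest microglia sum was that of BrapcKO 05, and the other 4 BrapcKO libraries were at 546 to 639 CPM. The call of C1qa was lost in 8 settings and those of C1qb and C1qc in 10 each, among them leaving out control 08, 09, 23 or 24 or BrapcKO 21 (adjusted p = 0.051 to 0.31, edgeR). Serpina3n lost its call in 4 settings, among them without control 08 or 09 (adjusted p = 0.087 to 0.17, edgeR). Of 15 astrocyte and 10 oligodendrocyte precursor markers 0 passed, 5 of 10 inhibitory neuron markers rose, 2 of 10 excitatory neuron markers fell and 0 of 10 endothelial and mural markers passed. The part of these lists in the values of the 7 genes was not tested.

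Genes with a profile like the mean of the 7 were ranked by Pearson r over 10 libraries, among 13907 annotated genes, as a description. Of centred log2 CPM, the closest were Uqcrc2 (0.98), Skp1a (0.98), Rnf139 (0.98), Supt16 (0.97) and Morf4l2 (0.97), followed by Stoml2, Ranbp1, Rtl8b, Rybp and Eef1e1 down to 0.96. All 10 were higher in B2 than in B1 in the edgeR test, as were 4 of the 7 genes and 13.4% of all genes. These 10 were picked for likeness to a mean that was itself higher in every B2 than in every B1 library. Their difference by code therefore follows largely from how they were picked. After group and code were fitted, the closest were Ciao1 (0.99), Kbtbd6 (0.98), Uhmk1 (0.98), Exoc6 (0.97) and Arl8b (0.97), with Mtch2, Cltc, Rdh11 and Ndufb6 also among the 10 closest, the last at 0.96.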

How the data were processed

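Total RNA from cerebral cortex was treated with DNase and depleted of ribosomal RNA before library preparation, per the labels' protocols. The authors deposited a table of whole-number read counts per gene, not normalized, with 14276 genes and 10 libraries. The submitters' processing notes name FastQC, Subread, featureCounts, DESeq2 and edgeR and the builds mm10 and GRCm38. Not given in the sources used here: their versions, the strand setting and the rule that chose the 14276 rows. The lowest row reached 0.582 CPM in its fifth-highest library, so rows of lower genes are not in this table.

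Groups and genotypes came from the labels. CPM used library totals scaled by TMM, and CPM per kb divided by the summed exon length in GENCODE's GRCm38 annotation. BrapcKO was tested against control with edgeR 4.0.16 (robust quasi-likelihood fit, R 4.3.3), title code and group as terms and all 10 libraries, with no further filter. The title code was tested in the same fit, and the 4 genotypes in a fit with the code. P-values were adjusted over all genes by Benjamini-Hochberg at 0.05, and intervals are 95%. The scripts were tested on simulated counts. The Y-linked score is the mean log2 CPM of 4 Y-linked genes. Alternatives were other terms, scalings and filters, DESeq2 1.42.0, limma-voom 3.58.1, the edgeR likelihood-ratio test, B1 libraries alone and each library left out. Library pairs within groups differed by 7.16 to 96.4 in chi-square per degree of freedom over 20 pairs, so no such pair repeated the same library. This does not show that the libraries of a pair came from separate animals.

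The 7 genes and all gene lists were chosen with earlier results of these data known. Genes named from a list were the called ones (at most 4 by smallest p) or, where none passed, up to 2 by smallest p, plus Srebf2, Srebf1, Scap and Insig2 in every case, with the 10 most alike in profile before and after group and code were fitted. Promoter windows were taken from RefSeq. Some genes that this rule names are not reported here, though list counts include them.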

Additional observations from a re-analysis of the deposited data

Results flagged for a closer look

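One library stood far from the other 4 of its group in 14 of 136 sets of values looked at (68 genes in each group). All 14 were among the 68 sets of the BrapcKO group, and no control set was picked out. Chance alone picks out about 1 in 20 sets in this way when nothing such as the code divides a group. The code divided both groups here. These sets are not independent, so 14 of 136 was not tested against that share. Among the 7 genes this was so for Idi1, at 10.7 CPM in BrapcKO 21 and next at 1.84 CPM. BrapcKO 21 was likewise apart for Srebf1 (54.3 CPM, next 74.0), Tmem97 (8.14 CPM, next 4.56), Slc32a1 (101.5 CPM, next 60.8) and Ndufb6 (55.7 CPM, next 17.8). It was also apart for 5 of the 10 genes nearest in profile to the 7, which were picked for a profile that is highest in BrapcKO 21: Uqcrc2 (249.9 CPM, next 172.8), Skp1a (434 CPM, next 285), Morf4l2 (225 CPM, next 136), Ranbp1 (43.1 CPM, next 26.1) and Rybp (36.2 CPM, next 20.7). BrapcKO 21 is the only BrapcKO library with the code B2. The control group holds 3 libraries with B2 and 2 with B1, so the code sets no single control library apart. BrapcKO 05 was apart for Osmr (19.1 CPM, next 11.6), C1qa (172.8 CPM, next 71.6), C1qb (111 CPM, next 50.2) and C1qc (122 CPM, next 48.1).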

How the results depend on the processing

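No paired analysis was possible because the groups share no library number and the labels tie no library to a litter. There were 446 genes higher in BrapcKO against control and 706 genes lower in BrapcKO against control, 1152 in all. The sum (with the higher and lower counts) was 617 (261 and 356) with the group as the only term, 328 (95 and 233) with both the Y-linked score and the code in the fit, 91 (29 and 62) with the Y-linked score and no code, and 415 (112 and 303) in B1 libraries alone. DESeq2 called 1682, of which 709 were higher. Leaving out each library in turn gave 406 to 1454 genes, 117 to 617 higher and 289 to 880 lower. The count among the 7 genes was 0 to 1 over these, and 1 (Fdft1) without BrapcKO 05. Their median log2 difference, 0.16, was -0.02 to 0.25 over these and -0.28 with the Y-linked score and no code. Between B2 and B1, 3 to 5 of the 7 genes passed with each library left out, 3 without BrapcKO 21. Ndufb6 turned round, to -0.31 with the group as the only term and -0.67 with the Y-linked score and no code, as did Slc32a1 to -0.17 under the second of these. The causes were not tested. A single BrapcKO library in B2, 2 control libraries in B1 and the low counts of Idi1 limit what these data can show.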
